A study of Mus musculus with 62 samples.

Results

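The glucocorticoid receptor, the gene that makes its steroid available inside the cell, and 7 genes that the receptor is known to switch on were followed in mouse gastrocnemius muscle during the growth of melanoma. The 9 genes were chosen by name: Nr3c1, Hsd11b1, Fkbp5, Ddit4, Zbtb16, Tsc22d3, Klf15, Sgk1 and Klf9. All 9 were found among the 47643 gene symbols of the table, and all 9 passed the filter on low values that left 12364 genes to be tested. Hsd11b1 encodes an enzyme and is counted here apart from the 7 target genes.

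The RNA came from 62 muscle samples of female mice that were 2 months old when injected, and was sequenced as stranded poly(A) libraries. CAC mice carried cachectic melanoma cells, which bring on cachexia, the wasting of muscle and fat that accompanies some cancers. NCAC mice carried non-cachectic melanoma cells, and Con mice were mock controls, whose injected fluid the labels do not name. The muscle was collected at 2, 4, 6 or 8 weeks. Each of the 12 groups had 5 libraries, except CAC at 8 weeks, which had 7. The sources differ on the strain: the series design names NCI Ath/nude mice, and the sample labels name C57BL6/J or C57BL/6J. The melanoma lines are not named in the labels. The labels call the libraries biological replicates but do not say that each came from a separate mouse, so p-values measure the spread between these libraries. Estimated depth was 40.3 to 49.1 M reads, and the least covered value of any of the 9 genes, for Hsd11b1, rested on an estimated 123 reads. Marker genes of muscle fibres, among them Ckm at 12572 to 24419 TPM, were high in all libraries. TPM, a transcript's share scaled so that each library sums to 1000000, is corrected for transcript length, so that levels of different genes can be compared on it.

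Glucocorticoids, corticosterone in the mouse, enter the cell and bind a receptor that is held ready in the cytoplasm by heat shock proteins. The bound receptor moves to the nucleus and binds DNA elements near its target genes. In skeletal muscle the hormone is known to lower protein synthesis and to raise protein breakdown, and both fasting and severe illness raise its level in blood. FKBP5 is a co-chaperone that lowers the receptor's affinity for the hormone, and its gene is among the most responsive targets. DDIT4 restrains mTORC1, the kinase complex that drives protein synthesis. TSC22D3, also called GILZ, mediates part of the hormone's anti-inflammatory action. KLF15 and KLF9 are zinc finger transcription factors, and KLF15 regulates amino acid breakdown in muscle. ZBTB16 is a transcriptional repressor, and SGK1 is a kinase related to AKT. The enzyme made from Hsd11b1 regenerates active corticosterone from its inert form within the cell.

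Promoter windows of 7 of the 9 genes, from 250 bases before to 50 bases after a RefSeq start site in build GRCm38.p6, were searched for the receptor's element. No window of Nr3c1 or Zbtb16 was searched, so whether theirs hold the element was not tested. The palindromic element, AGAACA and TGTTCT parted by any 3 bases and read the same on both strands, was found in 3 of 32851 promoter windows of all genes (0.00913%). One of these 3 was a window of Sgk1. A single TGTTCT on either strand, which is part of the palindrome, was in 4 of the 14 windows of these genes, in Sgk1 and Tsc22d3, and in 19.0% of all windows. Of the 3 Sgk1 windows with a match, the one with the palindrome is shown, and the other 2 hold a single element each. The Tsc22d3 window with a match and a window of Fkbp5, which holds neither, are shown beside it because these 3 genes are all known targets and differ in this stretch. Capitals mark the matches. The windows are Sgk1 at chr10:21993640-21993939 on the plus strand, where the palindrome starts at base −189 and a further TGTTCT at base −242, Tsc22d3 at chrX:140600473-140600772 on the minus strand, where the TGTTCT starts at base −185, and Fkbp5 at chr17:28486100-28486399 on the minus strand. The absence of a match says only that these letters are not in this window.
Sgk1: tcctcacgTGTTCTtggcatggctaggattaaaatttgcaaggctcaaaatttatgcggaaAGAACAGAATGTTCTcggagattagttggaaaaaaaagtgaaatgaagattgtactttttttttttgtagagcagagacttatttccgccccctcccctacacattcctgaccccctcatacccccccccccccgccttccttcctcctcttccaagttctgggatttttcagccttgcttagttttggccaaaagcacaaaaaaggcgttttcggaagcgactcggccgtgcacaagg
Tsc22d3: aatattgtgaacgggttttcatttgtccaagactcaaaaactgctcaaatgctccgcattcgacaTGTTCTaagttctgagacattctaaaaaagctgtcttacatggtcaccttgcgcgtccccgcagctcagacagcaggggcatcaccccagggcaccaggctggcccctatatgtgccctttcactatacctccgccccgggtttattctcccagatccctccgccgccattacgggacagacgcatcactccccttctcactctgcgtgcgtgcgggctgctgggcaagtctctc
Fkbp5: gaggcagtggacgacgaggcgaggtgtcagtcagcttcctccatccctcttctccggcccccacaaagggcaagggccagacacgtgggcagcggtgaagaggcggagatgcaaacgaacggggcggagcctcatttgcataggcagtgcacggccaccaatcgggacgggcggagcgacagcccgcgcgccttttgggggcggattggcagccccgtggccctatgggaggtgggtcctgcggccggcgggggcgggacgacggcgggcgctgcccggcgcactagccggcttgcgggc

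On TPM, the receptor gene itself stayed within a narrow range. Nr3c1, at chr18:39410545-39519421 in GRCm38, averaged 27.2 TPM over the 20 Con libraries, higher than 80.3% of the tested genes. At 8 weeks it had 23.9 to 32.7 TPM in the 7 CAC libraries (median 28.1), 20.7 to 31.6 TPM in the 5 NCAC libraries (median 29.1) and 26.2 to 34.2 TPM in the 5 Con libraries (median 31.4), and the 3 ranges overlapped. Over all weeks the highest library was 1.66 times the lowest in CAC, 1.84 times in NCAC and 1.94 times in Con. The group means of the 4 weeks lay between 26.4 and 28.5 TPM in CAC, between 26.2 and 30.5 TPM in NCAC and between 22.0 and 31.0 TPM in Con. With the 12 means put in order, 1 of the 11 neighbouring pairs had a gap larger than the larger of its SDs, and it was between Con at 2 weeks and Con at 4 weeks.

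Whether Nr3c1 changed in CAC depends on how the libraries are put on a common scale. TPM shares out a fixed total, and the share taken by transcripts of the mitochondrial genome was 24.2% ± 3.53 in CAC at 8 weeks (SD, n = 7) and 33.5% ± 3.02 in Con (SD, n = 5). Rescaling each library so that its median gene matches a common reference lowered the median change of all genes between CAC and Con, by log2 0.07 at 2 weeks, 0.16 at 4, 0.26 at 6 and 0.32 at 8 weeks. The shift between CAC and NCAC was 0.11, 0.16, 0.34 and 0.34 in the same order of weeks. On TPM, Nr3c1 was called higher in CAC than Con at 4 weeks by log2 0.35 (SE 0.13, adjusted p = 0.0362), and after rescaling it was not (log2 0.16, adjusted p = 0.431). At 6 and 8 weeks it was not called on TPM (log2 −0.23 and −0.14, adjusted p = 0.105 and 0.292). After rescaling it was called lower at both weeks (log2 −0.54 and −0.52, adjusted p = 0.00126 and 0.000429). With mitochondrial genes left out it was also called lower at both (log2 −0.40 and −0.32, adjusted p = 0.0227 and 0.0318). At 4 weeks it was then not called (log2 0.26, adjusted p = 0.201). The CAC to NCAC change at 8 weeks changed sign, being 0.09 on TPM (adjusted p = 0.498) and −0.31 after rescaling (adjusted p = 0.0315). Its 4 week call was also lost without CAC replicate 2, 3 or 4 or without Con replicate 1, 4 or 5 (adjusted p = 0.0544 to 0.106). Con at 4 weeks had the lowest of the 12 group means of Nr3c1, at 22.0 TPM, with 28.5 TPM in CAC and 26.2 TPM in NCAC at that week. Against NCAC the gene was not called at 4 weeks on TPM (log2 0.11, adjusted p = 0.525).

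**Figure D1:**
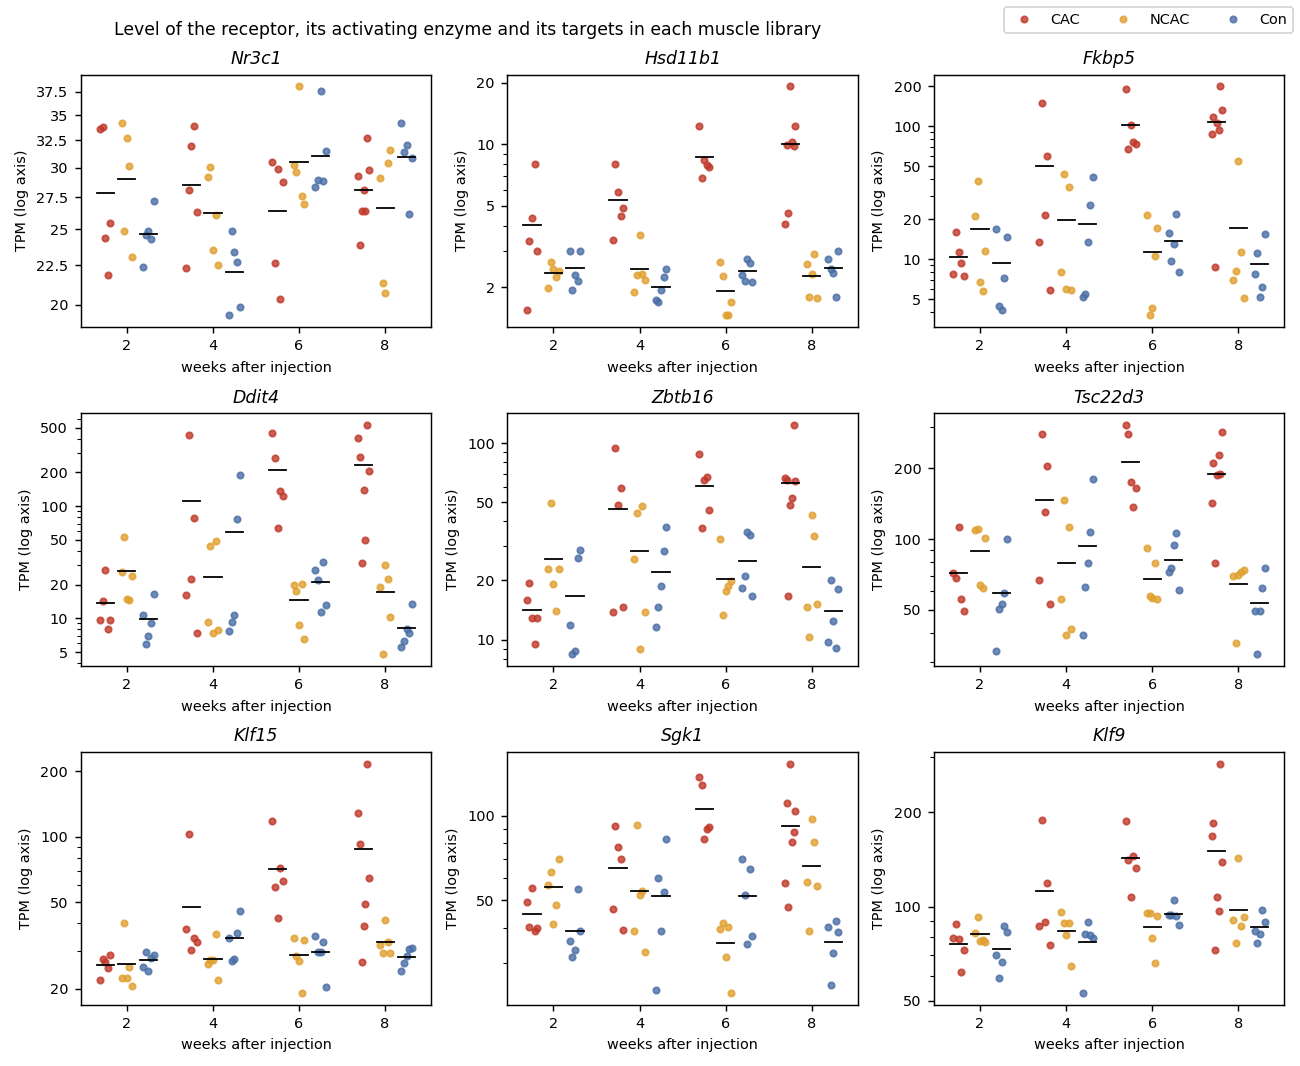
TPM (log axis) of the 9 genes in every library, by week after injection, with CAC left of NCAC and Con. Points are libraries and bars are group means. Hsd11b1 in CAC lies above all Con libraries at 4, 6 and 8 weeks, whereas Nr3c1 stays between 19.4 and 38.2 TPM in all groups.

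Hsd11b1, the enzyme gene at chr1:193221640-193264045, was called higher in CAC than Con from 4 weeks on. It averaged 2.34 TPM in the Con libraries, lower than most tested genes, and only 24.0% of them were lower still. At 2 weeks it had 1.54, 3.35, 4.35, 7.98 and 2.99 TPM in CAC, and 3 of these 5 libraries lay above every Con library of any week. Its difference from Con was not called larger at 4 than at 2 weeks (log2 0.61, adjusted p = 0.905 by limma). At 4 weeks it had 3.39, 8.04, 5.82, 4.44 and 4.88 TPM in CAC, against 1.90, 2.28, 3.60, 2.32 and 2.18 TPM in NCAC and 1.74, 1.69, 1.93, 2.25 and 2.46 TPM in Con. Every CAC library was above every Con library, as for 15.6% of all tested genes at that week, and NCAC replicate 3 lay above the lowest CAC library. At 6 weeks it had 12.3, 6.85, 8.37, 7.95 and 7.79 TPM in CAC, against 2.66, 2.26, 1.46, 1.45 and 1.68 TPM in NCAC and 2.30, 2.15, 2.76, 2.62 and 2.12 TPM in Con. CAC did not overlap with either of the other groups. At that week 28.7% of all tested genes lay wholly above Con and 39.8% wholly above NCAC. At 8 weeks it had 4.09 to 19.3 TPM in the 7 CAC libraries (median 9.96), against 1.76 to 2.91 TPM in NCAC (median 2.32) and 1.80 to 3.01 TPM in Con (median 2.45), again without overlap. Of all tested genes, 25.7% lay wholly above Con and 24.5% wholly above NCAC at 8 weeks.

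The change of Hsd11b1 from Con was log2 0.43 at 2 weeks (adjusted p = 0.405), 1.03 at 4 weeks (SE 0.23, adjusted p = 0.00134), 1.49 at 6 weeks (SE 0.23, adjusted p = 2.37e-06) and 1.54 at 8 weeks (SE 0.21, adjusted p = 6.28e-08). After rescaling the last 3 were 0.88, 1.21 and 1.20, and all were called. Against NCAC it was higher by 0.85 at 4 weeks (adjusted p = 0.0124), 1.73 at 6 weeks and 1.63 at 8 weeks. The 4 week call against NCAC was lost without CAC replicate 2 (log2 0.71, adjusted p = 0.110). Of its 12 group means, the 4 of CAC were the 4 highest, at 10.05 ± 5.10 TPM at 8 weeks (SD, n = 7) and 8.65 ± 2.11, 5.31 ± 1.76 and 4.04 ± 2.42 TPM at 6, 4 and 2 weeks (SD, n = 5 each). One neighbouring pair in that order, CAC at 6 weeks and CAC at 4 weeks, had a gap over the larger SD.

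Cells other than muscle fibres also express Hsd11b1, and their markers moved too. In bulk tissue, fewer cells of a type and less RNA per cell cannot be told apart. At 8 weeks the summed TPM of 7 adipocyte markers was 980 to 2988 in CAC, 558 to 1283 in NCAC and 666 to 1633 in Con, and 4 of the 7 were called higher in CAC than Con. The sum of 6 markers of fibro-adipogenic cells was 1336 to 2165 TPM in CAC, 686 to 1299.6 TPM in NCAC and 896 to 1393 TPM in Con, with 5 of 6 higher. Macrophage markers summed to 272 to 848 TPM in CAC, 43.7 to 174 TPM in NCAC and 86.8 to 311 TPM in Con, with 9 of 9 higher. None of the markers of these 3 lists was at 0 in all libraries. Endothelial markers summed to 126 to 202 TPM in CAC, 83.6 to 108 TPM in NCAC and 73.4 to 115 TPM in Con, with 5 of 6 higher and 1 lower. Of all tested genes 65.3% were called higher in the same comparison. After rescaling, 4 of 7 adipocyte markers, 3 of 6 of fibro-adipogenic cells, 7 of 9 of macrophages and 2 of 6 of endothelium were called higher, where 24.9% of all genes were, and 1 adipocyte and 1 endothelial marker were lower. The part of these cells in the change of Hsd11b1 was not tested. The 8 muscle fibre markers summed to 97331 to 137444 TPM in CAC, 129356 to 153607 TPM in NCAC and 117929 to 137150.0 TPM in Con at 8 weeks. On TPM 1 of the 8 was called higher and 2 lower in CAC than Con. After rescaling 0 were higher and 5 lower, where 24.9% and 21% of all genes were. Against NCAC 1 was then higher and 7 lower, where 25.1% and 20.6% of all genes were.

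H6pd, whose product supplies the cofactor of this enzyme, rose alongside it. Its change from Con was log2 0.73 at 4 weeks (SE 0.18, adjusted p = 0.00278), 0.82 at 6 weeks (adjusted p = 0.000214) and 1.19 at 8 weeks (adjusted p = 5.89e-08). After rescaling the 8 week change was 0.81 and still called. With Hsd11b1 set apart, the list of steroid genes held 5, of which 3 were tested. Akr1c14, a reductase of steroid hormones, fell by 0.63 on the log2 scale at 6 weeks (adjusted p = 0.00188) and by 0.36 at 8 weeks (adjusted p = 0.0381). Nr3c2, the mineralocorticoid receptor gene, fell by 0.48 at 6 weeks (adjusted p = 0.000320). Its change at 8 weeks was −0.10 (adjusted p = 0.354), or −0.42 after rescaling (adjusted p = 0.000766).

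The 7 target genes were called in CAC against Con at 6 and 8 weeks and not before. At 2 weeks none of the 9 genes was called in CAC against Con (0.283% of all tested genes were called by limma). At an unadjusted p under 0.05 none of the 9 passed either, while 1647 genes of 12364 did. At 4 weeks the 2 called were Nr3c1 and Hsd11b1, both higher, beside 23% of all genes called higher. After rescaling 1 was called, Hsd11b1, beside 7.76% of all genes. At 6 weeks 8 of the 9 were called higher, all but Nr3c1, beside 51.8% of all genes, and at 8 weeks the same 8 were, beside 65.3%. The median change of the 9 genes was 1.24 at 6 weeks and 1.54 at 8 weeks, and that of all tested genes was 0.28 and 0.36. After rescaling, 6 were called higher and 1 lower at 6 weeks, beside 15.7% and 16.6% of all genes, and 7 higher and 1 lower at 8 weeks, beside 24.9% and 21% of all genes. Klf9 lost its call at both weeks (log2 0.26 and 0.29, adjusted p = 0.310 and 0.185), and Zbtb16 lost its call at 6 weeks (log2 0.93, adjusted p = 0.0890). Both also lost their 6 week call without CAC replicate 1 (adjusted p = 0.0752 for Klf9 and 0.0570 for Zbtb16).

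**Figure D2:**
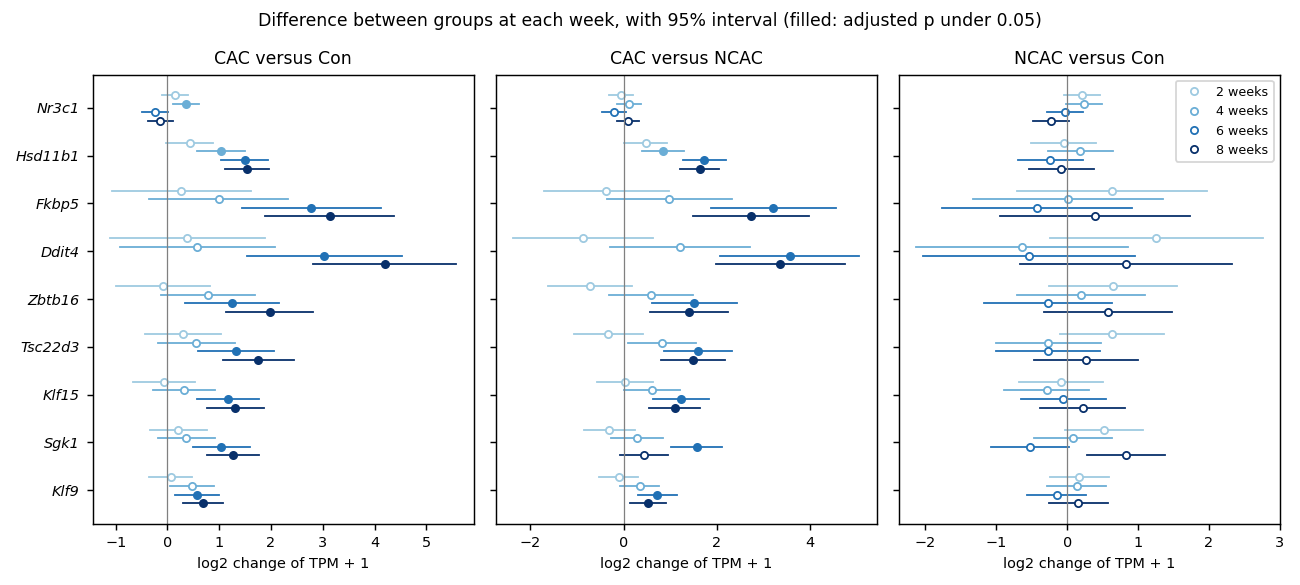
Change of the 9 genes on the log2(TPM + 1) scale at 2, 4, 6 and 8 weeks, for CAC against Con, CAC against NCAC and NCAC against Con, with 95% intervals from limma. Filled points have an adjusted p under 0.05. Filled points appear at 4 weeks for Nr3c1 and Hsd11b1, at 6 and 8 weeks for 8 genes against Con, and for no gene between NCAC and Con.

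Fkbp5 and Ddit4 changed most. Fkbp5, at chr17:28398753-28486149, had 87.6, 118.5, 8.79, 106, 93.3, 201 and 134 TPM in the 7 CAC libraries at 8 weeks, against 7.04, 8.18, 54.5, 11.4 and 5.14 TPM in NCAC and 7.75, 11.2, 5.20, 6.19 and 15.5 TPM in Con. CAC replicate 3 lay within the Con range, the other 6 CAC libraries lay above all Con and NCAC libraries, and NCAC replicate 3 stood above the rest of its group. At 6 weeks it had 67.5 to 191 TPM in the 5 CAC libraries, against 3.79 to 21.5 TPM in NCAC and 7.97 to 21.8 TPM in Con, with no overlap. At 4 weeks the CAC libraries spread over 13.5, 149.9, 21.4, 59.7 and 5.87 TPM, and the Con libraries over 5.25, 5.51, 13.5, 25.8 and 41.6 TPM. The log2 change from Con was 0.99 at 4 weeks (SE 0.67, adjusted p = 0.263), 2.78 at 6 weeks (SE 0.67, adjusted p = 0.000686) and 3.13 at 8 weeks (SE 0.62, adjusted p = 2.42e-05), and the last stood 18th from the highest of 12364 genes.

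Ddit4, at chr10:59949675-59951770, had 409, 272, 30.9, 139, 49.6, 531 and 207 TPM in CAC at 8 weeks, against 19.0, 4.79, 29.8, 22.5 and 10.2 TPM in NCAC and 5.57, 6.31, 8.02, 7.41 and 13.4 TPM in Con. CAC lay above both other groups in every library, with the lowest CAC library, replicate 3, just above the highest NCAC library. The mean was 234 ± 185 TPM in CAC (SD, n = 7), 17.3 ± 9.91 TPM in NCAC and 8.15 ± 3.11 TPM in Con (SD, n = 5 each). Its change from Con was log2 3.03 at 6 weeks (SE 0.75, adjusted p = 0.000868) and 4.19 at 8 weeks (SE 0.69, adjusted p = 1.53e-06), the 7th highest of all tested genes. At 4 weeks it was 0.57 (SE 0.75, adjusted p = 0.579), with 430.4 TPM in CAC replicate 2 and 191 TPM in Con replicate 5. Ranks this high were also reached without a call. In NCAC against Con at 2 weeks, Ddit4 stood 7th from the highest (log2 1.26) and Fkbp5 47th.

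The other 5 targets rose by less. Tsc22d3, at chrX:140539528-140600522, had 142, 210, 79.3, 188, 227, 189 and 286 TPM in CAC at 8 weeks, against 69.5, 36.1, 70.4, 72.6 and 73.6 TPM in NCAC and 49.3, 32.4, 49.4, 61.8 and 75.6 TPM in Con. All CAC libraries were above both other groups, replicate 3 by little. Its change from Con was log2 1.76 (SE 0.34, adjusted p = 1.77e-05). Zbtb16, at chr9:48651797-48836225, had 66.8, 65.1, 16.7, 48.4, 52.9, 124 and 64.2 TPM in CAC, against 14.6, 10.3, 42.9, 33.9 and 15.3 TPM in NCAC and 9.74, 20.2, 12.4, 9.11 and 18.1 TPM in Con. All CAC libraries but replicate 3 were above both other groups, and NCAC replicates 3 and 4 were above all Con libraries. Its change from Con was 1.97 (SE 0.42, adjusted p = 6.12e-05).

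Klf15, at chr6:90461043-90491803, had 129, 92.6, 26.7, 38.9, 49.3, 217 and 64.7 TPM in CAC at 8 weeks, against 31.8, 29.3, 41.4, 32.9 and 29.2 TPM in NCAC and 24.2, 26.4, 28.2, 30.5 and 30.9 TPM in Con. Con spanned a narrow range, and CAC replicate 3 lay within it while the other 6 CAC libraries lay above it. The change was log2 1.31 (SE 0.28, adjusted p = 6.12e-05). Sgk1, at chr10:21882184-21999903, had 57.8, 111, 47.4, 153, 80.3, 87.4 and 104 TPM in CAC, against 58.3, 39.0, 97.0, 80.6 and 56.4 TPM in NCAC and 40.2, 24.9, 32.5, 42.1 and 38.5 TPM in Con. CAC lay above Con in every library but overlapped with NCAC, and its change from Con was 1.27 (SE 0.25, adjusted p = 2.92e-05).

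Klf9, at chr19:23141226-23168129, was the most abundant of the 9 genes in Con, at 82.6 TPM, and changed least of the 7 targets. At 8 weeks it had 168, 185, 72.4, 107, 96.7, 286 and 139 TPM in CAC, against 90.5, 76.3, 143, 86.8 and 92.5 TPM in NCAC and 83.7, 76.5, 81.8, 97.4 and 89.3 TPM in Con. Of the 7 CAC libraries, 5 were above all Con libraries, and replicate 3 was below them all. The change was log2 0.68 (SE 0.19, adjusted p = 0.00179).

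Fewer of the genes were free of overlap at 8 weeks than at 6. At 6 weeks 8 of 9 genes had all CAC libraries above all Con libraries, where 28.7% of all genes did, and the same 8 had them above all NCAC libraries, where 39.8% did. At 8 weeks Tsc22d3, Sgk1, Ddit4 and Hsd11b1 lay above all Con libraries, where 25.7% of all genes did. Tsc22d3, Ddit4 and Hsd11b1 lay above all NCAC libraries, where 24.5% did. The 8 week CAC group had 7 libraries and the 6 week group 5. For Fkbp5, Klf15 and Zbtb16 at 8 weeks, 6 of the 7 lay above all Con libraries, all but replicate 3. The ratio of mean TPM in CAC over Con at 8 weeks was 28.7 for Ddit4, 11.7 for Fkbp5, 4.49 for Zbtb16, 4.07 for Hsd11b1, 3.51 for Tsc22d3, 3.15 for Klf15, 2.57 for Sgk1, 1.76 for Klf9 and 0.907 for Nr3c1. At 6 weeks it was 9.85 for Ddit4 and 7.47 for Fkbp5, and for the other 6 genes that were called it lay between 1.51 and 3.62. In the order of the 12 group means, none of the 11 neighbouring pairs of any of the 7 targets had a gap over the larger SD.

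**Figure D3:**
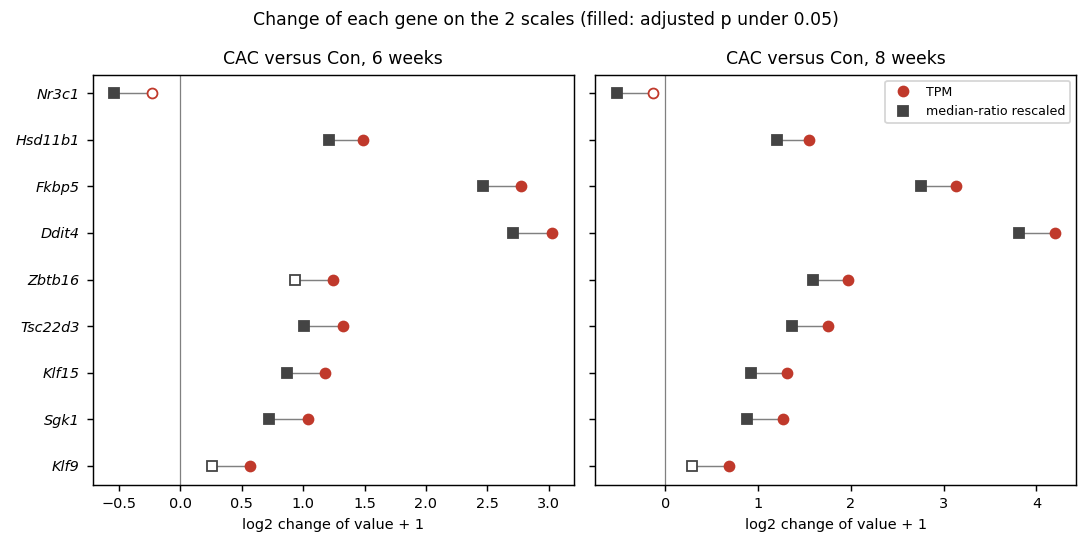
Change of the 9 genes between CAC and Con at 6 and 8 weeks, on TPM (circles) and after median-ratio rescaling (squares), on a log2 axis. Filled symbols have an adjusted p under 0.05. Each gene moves to the left after rescaling, Nr3c1 becomes called lower and Klf9 loses its call.

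Set against NCAC, the melanoma that does not cause cachexia, most of the same genes were called, and this comparison shares its CAC libraries with the one against Con. None of the 9 genes was called at 2 weeks (1.17% of all genes were), and Hsd11b1 was the 1 gene with an unadjusted p under 0.05, among 2383 genes. At 4 weeks Hsd11b1 was called higher (18.1% of all genes were). At 6 weeks 8 were called higher (64.1% of all genes were), and at 8 weeks 7 were (67.5%). After rescaling, Hsd11b1 was again called at 4 weeks, beside 3.22% of all genes. At 6 weeks 7 were higher and 1 lower, beside 21.6% and 20.2% of all genes, and at 8 weeks 6 were higher and 1 lower, beside 25.1% and 20.6%. Nr3c1 was the lower one at both weeks, and Klf9 lost its call at both. At 8 weeks the change from NCAC on TPM was log2 3.36 for Ddit4 (adjusted p = 3.93e-05), 2.74 for Fkbp5 (adjusted p = 0.000139), 1.49 for Tsc22d3, 1.39 for Zbtb16 and 1.09 for Klf15. At 6 weeks it was 3.56 for Ddit4, 3.20 for Fkbp5, 1.59 for Tsc22d3, 1.56 for Sgk1, 1.52 for Zbtb16, 1.23 for Klf15 and 0.72 for Klf9. Sgk1 was not called at 8 weeks, at log2 0.44 (SE 0.25, adjusted p = 0.117), although it was against Con. Its values at 8 weeks were 47.4 to 153 TPM in CAC, 39.0 to 97.0 TPM in NCAC and 24.9 to 42.1 TPM in Con. It was called against NCAC without CAC replicate 3 (adjusted p = 0.0374) or without NCAC replicate 3 (adjusted p = 0.0471). Klf9 was called against NCAC at 8 weeks (log2 0.52, adjusted p = 0.0142), but not without CAC replicate 6 or NCAC replicate 2 (adjusted p = 0.0767 and 0.0531).

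NCAC against Con gave no call among the 9 genes, and limma called 0 of all 12364 genes (0%) at each week. At an unadjusted p under 0.05 there were 471, 224, 909 and 139 genes at 2, 4, 6 and 8 weeks. Of the 9, only Sgk1 at 8 weeks was among them (log2 0.83, SE 0.27, adjusted p = 1). These tests do not show that NCAC and Con were alike. The 95% interval for Fkbp5 at 8 weeks, for example, ran from −0.94 to 1.74 on the log2 scale.

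The difference between CAC and Con was called larger at 8 than at 2 weeks in 7 of the 9 genes, all but Nr3c1 and Klf9, beside 27.2% of all genes in that direction. For Klf9 it was larger by log2 0.62 without a call (adjusted p = 0.0875). The growth was log2 3.81 for Ddit4 (adjusted p = 0.00877), 2.87 for Fkbp5 (adjusted p = 0.0194) and 1.12 for Hsd11b1 (adjusted p = 0.0105). After rescaling 2 of the 7, Ddit4 and Hsd11b1, were still called higher, and Nr3c1 was called lower (log2 −0.58, adjusted p = 0.0332). Sgk1 lost this call without CAC replicate 2 or Con replicate 4 at 2 weeks, or without CAC replicate 4 or Con replicate 2 at 8 weeks (adjusted p = 0.0514 to 0.0697), and Tsc22d3 lost it without Con replicate 5 at 2 weeks (adjusted p = 0.0631). Between neighbouring weeks, 0 of the 12364 genes were called by limma in any of the 3 steps. Unadjusted p was under 0.05 for 483 genes from 2 to 4 weeks, 1263 from 4 to 6 weeks, including Nr3c1, Klf15 and Ddit4, and 385 from 6 to 8 weeks. A test over all 4 weeks called Ddit4, Hsd11b1 and Klf15 on TPM, beside 12.1% of all genes. After rescaling, Hsd11b1 and Klf15 lost this call (adjusted p = 0.114 and 0.126), Ddit4 did not (adjusted p = 0.0374), and Nr3c1 was called (adjusted p = 0.0143). On TPM it called Ddit4 with any 1 library left out, but Klf15 was lost without CAC replicate 1 or 2 or Con replicate 2, 4 or 5 at 2 weeks, or without CAC replicate 2 or Con replicate 1 or 4 at 8 weeks (adjusted p = 0.0521 to 0.0722). Hsd11b1 was lost without CAC replicate 1, 2 or 5 or Con replicate 1 or 5 at 2 weeks, or without Con replicate 4 at 8 weeks (adjusted p = 0.0539 to 0.106). Without CAC replicate 2 at 4 weeks, or without CAC replicate 3 at 8 weeks, 8 of the 9 genes were called. The same test on NCAC against Con called 0 genes (0%), with 186 at an unadjusted p under 0.05. In Con itself, 0 of the 9 genes were called between weeks (0.59% of all genes were), and Nr3c1 had an adjusted p of 0.0589.

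In several libraries the targets stood high or low together. CAC replicate 2 at 4 weeks was the highest of its group in 7 of 7 targets, CAC replicate 1 at 6 weeks likewise in 7 of 7, and CAC replicate 6 at 8 weeks in 5 of 7. CAC replicate 3 at 8 weeks was the lowest of its group in 7 of 7. It had 8.79 TPM of Fkbp5, 72.4 TPM of Klf9 and 26.7 TPM of Klf15, which lie within the Con range of that week or below it, but 4.59 TPM of Hsd11b1, above the whole Con range. Some NCAC and mock libraries stood out as well. NCAC replicate 2 at 2 weeks and NCAC replicate 3 at 8 weeks were the highest of their groups in 6 of 7 targets, and NCAC replicate 1 at 6 weeks in 5 of 7. Con replicate 5 at 4 weeks was the highest of its group in 6 of 7 targets, and Con replicate 1 the lowest in 6 of 7. With any 1 of the 8 week CAC or Con libraries left out, 8 of the 9 genes were still called against Con at 8 weeks.

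**Figure D4:**
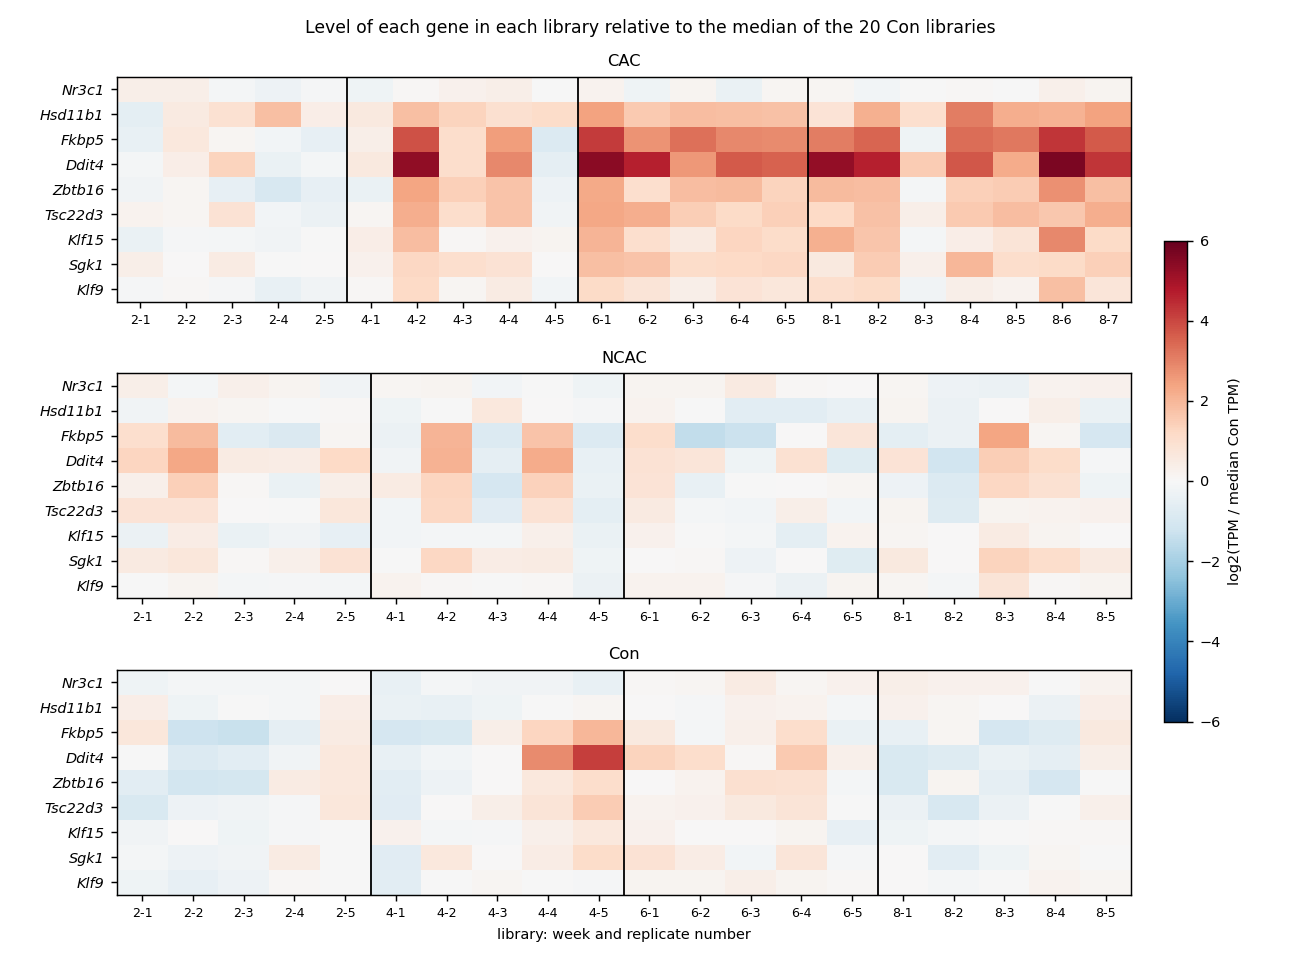
Level of the 9 genes in each of the 62 libraries, as log2 of TPM over the median of the 20 Con libraries, with CAC above NCAC and Con. Columns are libraries labelled by week and replicate number, black lines part the weeks, and red is higher. Columns CAC 4-2, 6-1 and 8-6 are dark for Ddit4 and Fkbp5 and lighter red for the other targets, column CAC 8-3 is pale, and Con 4-5 is dark for Ddit4.

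The span of a gene over the Con libraries was wide for some targets and narrow for the enzyme. The highest Con library was 34.3 times the lowest for Ddit4, 10.1 times for Fkbp5 and 5.56 times for Tsc22d3, but 1.78 times for Hsd11b1. In CAC the span was 72.1 times for Ddit4, 34.3 times for Fkbp5 and 12.6 times for Hsd11b1. As a description over the 12 group means, which share their libraries and are not independent, Fkbp5 had a Pearson r of 0.98 with Ddit4 and 0.93 with Hsd11b1, and Nr3c1 had −0.07 with Fkbp5. Of all tested genes outside the 9, those with the pattern most like Fkbp5 over the 12 group means were Sugp1, Glul and Prodh (each r = 0.99). For Ddit4 they were Glul, Map3k6 and Slc43a3 (each r = 0.99), for Hsd11b1 Ifitm2, Serpina3n and Cpne8 (each r = 0.99), and for Sgk1 Cyr61, Hist2h2aa1 and Cebpd (r = 0.95, 0.95 and 0.93). Tsc22d3 was most like Fmo2, Glul and Map3k6 (each r = 0.99), Klf15 most like Mvb12a, Anks3 and Mgst3 (each r = 0.99), Zbtb16 most like Fibin, Cebpb and Acvr1b (r = 0.98, 0.98 and 0.97), and Klf9 most like Acacb, Slc7a2 and Myh14 (r = 0.99, 0.99 and 0.98). Nr3c1 had its most similar genes in Etohi1, Wwp1 and Zfp367 (r = 0.91, 0.89 and 0.89).

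Other genes that glucocorticoids are known to induce were taken from a list of 24. In CAC against Con, 0 of 24 were called at 2 weeks, 5 were higher at 4 weeks, 18 at 6 weeks and 21 at 8 weeks, and none was lower at any of these weeks. Of all tested genes, 23% were called higher at 4 weeks, 51.8% at 6 weeks and 65.3% at 8 weeks, so that the list's count at 4 weeks was near that share. The median change of the list at 8 weeks was 1.59, and that of all tested genes was 0.36. After rescaling 18 of 24 were called higher at 8 weeks, where 24.9% of all genes were. Mt2 and Mt1, metallothioneins that bind zinc, rose by 6.86 and 5.76 on the log2 scale at 8 weeks (adjusted p = 1.13e-09 and 1.29e-10). Cebpd, a transcription factor, rose by 3.99 (adjusted p = 2.80e-08), and Tgm2, a transglutaminase, by 1.78 (adjusted p = 2.28e-11). At 4 weeks Tgm2 had risen by 1.02 (adjusted p = 0.000179) and Lpin1, a phosphatidate phosphatase, by 0.97 (adjusted p = 0.000564).

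Genes of muscle atrophy that respond to the hormone, the FoxO factors or KLF15 were higher in 7 of 9 cases at 8 weeks, with a median change of 1.46, and in 3 of 9 at 4 weeks. The share of all tested genes called higher was 65.3% at 8 weeks and 23% at 4 weeks, near those counts. After rescaling 6 of 9 were higher and 1 lower at 8 weeks, where 24.9% and 21% of all genes were. Eif4ebp1, an inhibitor of translation initiation, rose by 2.43 (adjusted p = 9.18e-08), Fbxo31, a ubiquitin ligase subunit, by 1.61 (adjusted p = 5.14e-07), and the transcription factor genes Foxo1 and Foxo3 by 1.90 (adjusted p = 2.07e-05) and 1.15 (adjusted p = 3.25e-06). At 4 weeks Eif4ebp1 was higher by 1.28 (adjusted p = 0.0107), and Mstn, the growth inhibitor myostatin, by 0.64 (adjusted p = 0.0210).

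Calls among the partners of the receptor protein depended on the scale. Of 10 chaperones of the receptor, 8 were called higher at 8 weeks on TPM, where 65.3% of all genes were, with a median change of 0.36, that of all tested genes being 0.36 as well. After rescaling 2 were higher and 2 lower, where 24.9% and 21% of all genes were. Ptges3, the co-chaperone p23, rose by 0.89 on TPM and 0.50 after rescaling (adjusted p = 1.05e-06 and 0.000218), and on TPM it was the only one called at 4 weeks (log2 0.54, adjusted p = 0.0110). After rescaling, 1 chaperone was called higher at 4 weeks and 2 lower. Fkbp4, Hsp90ab1 and Hspa8 rose by 0.41, 0.68 and 0.46 on TPM, and of these only Hsp90ab1 was called after rescaling (log2 0.28, adjusted p = 0.0379). Of 12 coactivators and corepressors, 10 were called higher at 8 weeks on TPM and 2 after rescaling, where 65.3% and 24.9% of all genes were. Ncor1, Ncoa1, Crebbp and Crtc2 rose by 0.50, 0.45, 0.57 and 0.72 on TPM, and after rescaling Crebbp and Crtc2 were called (log2 0.24 and 0.35). At 4 weeks Ncoa1 and Ep300 were higher by 0.45 and 0.51 on TPM and by 0.27 and 0.33 after rescaling, called on both scales.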

How the data were processed

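The deposited table holds TPM values for 62 libraries, made by the authors against build mm10 per the submitters' processing notes. For the aligner, the counter and the annotation, the entry is not given in the sources used here. Groups were taken from the sample descriptions, since 1 label names cachectic cells for every library. The depth was estimated from TPM and GENCODE exon lengths, with 78.0% to 79.6% of low values within 0.02 of a whole read, so the reads are approximate and cover counting error only. Genes with at least 1 TPM in at least 5 libraries were tested on the log2(TPM + 1) scale, using limma 3.58.1 under R 4.3.3. The model had 12 group means and a variance trend, and two-sided p-values received the Benjamini-Hochberg adjustment over 12364 genes with a threshold of 0.05. Fold changes on this scale understate the change of low genes. The fit was tested on simulated data. The settings varied were the pseudocount (0.1), the filter (none, or 5 TPM), median-ratio rescaling, mitochondrial genes left out, array weights, a fit of only the groups compared, a replicate block and each library left out. All 9 genes are named in each comparison. From each pathway list up to 4 genes of lowest p at 8 weeks and 2 at 4 weeks are named, and for likeness of pattern the 3 genes of highest r among those with a group mean of at least 5 TPM, predicted gene models passed over. Nr3c2 was named beyond this rule, after its values were seen. The genes and lists were chosen with earlier results of these data known.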

Additional observations from a re-analysis of the deposited data

Results flagged for a closer look

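In 4 of 108 groups of values (3.7%), 1 library stood far from the others of its group. Chance gives about 1 in 20, so this count is no more than chance gives. CAC replicate 3 at 8 weeks had 8.79 TPM of Fkbp5, far below the other 6 CAC libraries. CAC replicate 2 at 4 weeks had 104 TPM of Klf15, far above its group. NCAC replicate 2 at 8 weeks had 36.1 TPM of Tsc22d3, and Con replicate 1 at 4 weeks had 52.8 TPM of Klf9, both below their groups.

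The difference between CAC and Con varied between the 4 weeks by limma's F test for Ddit4 (F = 6.73, adjusted p = 0.0173), Hsd11b1 (F = 5.31, adjusted p = 0.0342) and Klf15 (F = 5.17, adjusted p = 0.0364). It was larger at 8 than at 2 weeks by log2 3.81 for Ddit4, 2.87 for Fkbp5, 2.06 for Zbtb16, 1.46 for Tsc22d3, 1.37 for Klf15, 1.12 for Hsd11b1 and 1.06 for Sgk1.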

How the results depend on the processing

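Of 4158 values of single genes under the alternatives, 4025 kept their side of the threshold and, where called, their direction, 73 lost a call, 59 gained one and 1 took the other sign with a call. That 1 was Nr3c1 in CAC against NCAC at 8 weeks, at −0.31 after rescaling. Changes of sign in values with no call under either setting are not counted. Of the 4158 values, 2790 came from leaving out 1 library, where 30 lost a call and 38 gained one. Under the other alternatives 43 lost a call and 21 gained one. The number of the 9 genes called in CAC against Con at 4 weeks, 2 in the analysis reported, was 1 with no filter, 1 after rescaling, 1 with mitochondrial genes left out and 1 with only the groups compared. For the difference between all 4 weeks, 3 genes were called, and 1 with no filter, 5 at 5 TPM, 2 after rescaling, 1 with mitochondrial genes left out, 9 with array weights, 1 with the replicate block and 0 with only the groups compared. Hsd11b1 passed the filter at 5 TPM only through CAC libraries, as it reached at most 3.60 TPM in NCAC and 3.01 TPM in Con. For 8 against 2 weeks, 7 genes were called, and 3 after rescaling, 4 with mitochondrial genes left out and 3 with the replicate block. Tsc22d3 and Sgk1 also lost this call with no filter, and Klf15 and Hsd11b1 with only the groups compared. With array weights Klf9 gained a call as higher and Nr3c1 as lower. For the other comparisons only the larger shifts of a count are listed. In Con between weeks, 0 were called, and 1 with array weights and 1 with only the groups compared. The causes were not tested, except that the fit of only the groups compared has fewer libraries. The block fit has fewer for CAC at 8 weeks as well. Replicate numbers 6 and 7 occur in that group alone, so with the block these libraries do not inform its mean.

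The replicate numbers were not used to pair the libraries. In no comparison did all same-numbered pairs have deviations that correlate above 0.1, and their mean correlation ran from −0.17 to 0.13. Whether same-numbered libraries share a litter or day is not stated in the labels and was not tested. With the block, where CAC replicates 6 and 7 do not inform the 8 week mean, Klf9 in CAC against NCAC at 8 weeks was also lost (log2 0.31, adjusted p = 0.138). Leaving out each library in turn gave 1 to 3 genes called in CAC against Con at 4 weeks, 6 to 8 at 6 weeks and 8 to 8 at 8 weeks. In CAC against NCAC it gave 0 to 2 at 4 weeks, 8 to 8 at 6 weeks and 6 to 8 at 8 weeks. It gave 6 to 8 for 8 against 2 weeks, 1 to 8 for the difference between all 4 weeks and 0 to 1 in Con between weeks, and 0 in the remaining comparisons.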
